A study of Mus musculus with 2 samples.

Results

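Voltage-gated sodium channels, voltage-gated calcium channels, HCN channels and the sodium leak channel NALCN were examined in RNA from mouse brain. The subunit genes were chosen by symbol alone (Scn genes ending in a or b, Cacna, Cacnb, Hcn and Nalcn), with no measured value used. This gave 36 of the 23329 genes in the files, 24 that encode pore-forming subunits and 12 that encode auxiliary subunits, with 75 annotated transcripts between them. Both libraries came from the whole brain of wild-type C57BL/6 mice: 1 from the synaptosome-enriched fraction and 1 from total homogenate. Synaptosomes are nerve endings that pinch off and reseal, often with postsynaptic membrane attached, when brain is homogenised. The fraction was the layer taken between 2 Percoll densities after nuclei had been spun out. Both titles carry the tag CT10, which is not explained, and age, sex and number of animals are not stated. The series title gives the aim as finding mRNAs enriched at synapses.

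Sodium channel alpha subunits and calcium channel alpha1 subunits are large proteins that each fold into a complete voltage-gated pore. HCN channels open on hyperpolarisation and are assembled from several subunits of the same family, and NALCN carries a background sodium leak that sets excitability. Auxiliary subunits change how much of the pore protein reaches the membrane and how it gates. Sodium channel beta subunits are small membrane proteins with an immunoglobulin-like domain. Calcium channel beta subunits are cytosolic, and alpha2delta subunits lie mostly outside the cell and are anchored to the membrane. In neurons sodium channels fire the axon, and calcium channels of the P/Q and N types trigger transmitter release.

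The synaptosome library held 13709539 estimated counts and the homogenate library 15210857. Each fraction was sequenced as 1 library without a replicate. Each ratio therefore compares these 2 libraries, no p-value is given, and the 95% intervals cover counting error only. Ratios are synaptosome over homogenate after TMM scaling, which sets each gene against the typical gene of its library. A subunit was counted as higher or lower when the ratio was at least 2-fold and its counting interval excluded 1-fold. Scaling by library totals instead shifts every log2 ratio by -0.49. In bulk RNA, fewer cells of a type and less RNA per cell cannot be told apart.

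The fractions also differed in markers of cell types and of the nucleus. Astrocyte markers were higher for 6 of 8 genes, with summed levels of 15287 CPM in synaptosomes and 5186 CPM in homogenate, and microglial markers for 4 of 6. Oligodendrocyte markers were higher for 2 of 6 and lower for 0, with a median log2 ratio of 0.37. Their summed levels were 19183 CPM in synaptosomes and 8472 CPM in homogenate. Neuron markers, which included genes of excitatory and of inhibitory neurons, were higher for 0 of 9 and lower for 5. Their median log2 ratio was -1.06 and their range -1.42 to 0.93. The inhibitory neuron genes Gad1 and Gad2 were 2.36-fold and 2.33-fold lower, while Slc17a7, of excitatory neurons, stood at 1.91-fold. Endothelial markers were lower for 5 of 5. Nuclear noncoding RNAs were lower for 4 of 4, with summed levels of 1418 CPM in synaptosomes and 9741 CPM in homogenate. None of these markers was at 0 in either library. Their part in the results below was not tested.

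Pore-forming subunit mRNAs were higher in synaptosomes by more than auxiliary subunit mRNAs were. Of the 36 genes, 32 reached a mean of 1 CPM, and 12 of these (37.5%) were at least 2-fold higher, against 12.8% of all 14153 genes tested. Cacnb2 was the only member at least 2-fold lower (1 of 32), against 9.1% of all genes. The pore-forming class had 10 of 20 tested genes called higher and 0 called lower, and its median log2 ratio was 1.01. The auxiliary class had 2 of 12 called higher and 1 called lower, and its median was 0.42. The median of all genes tested was -0.01. At 10 CPM or more, 9 of 26 members were called higher and 1 lower, where 13.9% and 5.72% of the 10107 genes at that level were called. The gap between the class medians was 0.59 by TMM and by library totals, which cannot change it because a scaling shifts all genes alike. In TPM, close to such a shift, it was 0.58. The auxiliary median turned to -0.068 under library totals and -0.11 in TPM, where the median of all genes was -0.51 and -0.55. The gap narrowed to 0.27 when only the most abundant transcript of each gene was used. The 4 genes under the filter were all pore-forming: Scn4a, Scn10a, Scn11a and Cacna1f, with 1 to 11 counts in synaptosomes and 2 to 14 in homogenate.

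**Figure D1:**
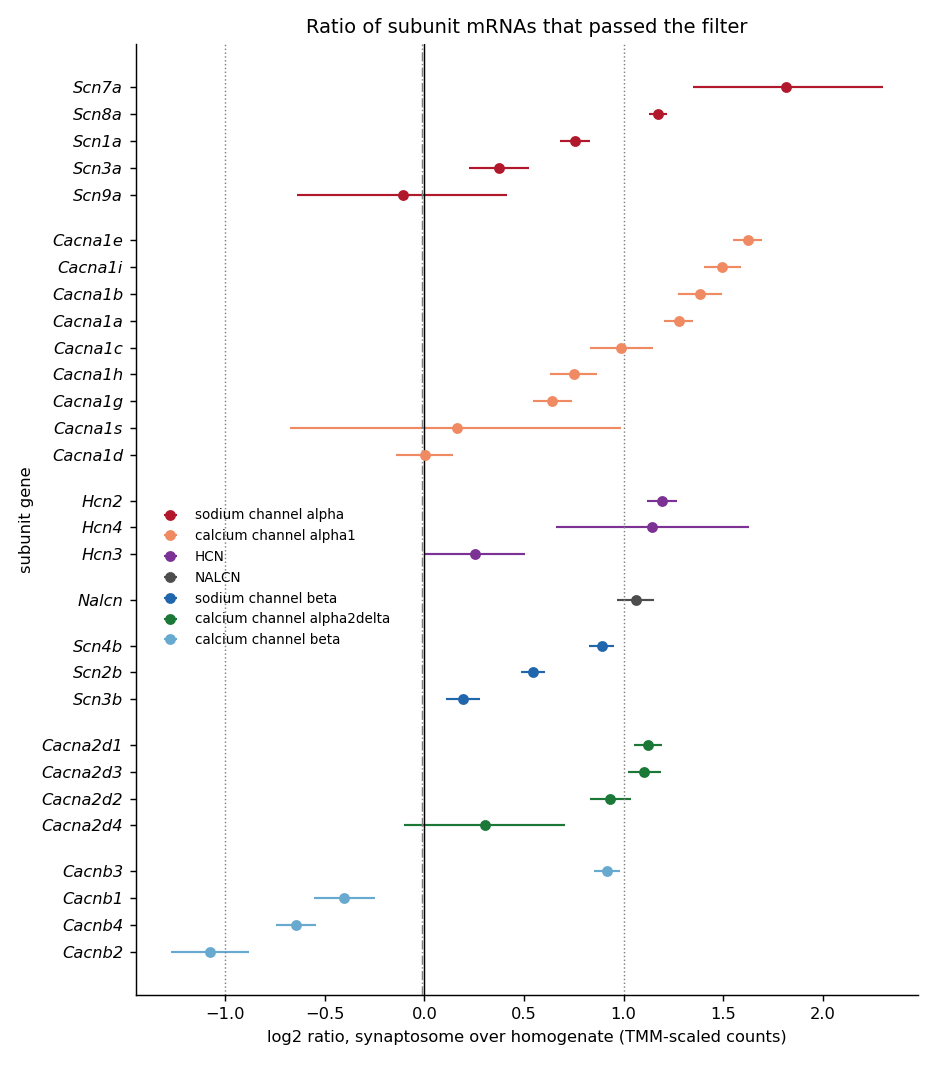
Log2 ratio of TMM-scaled counts, synaptosome over homogenate, for 29 of the 32 subunit genes that passed the filter, coloured by family; points are single-library ratios and bars the 95% counting intervals. Dotted lines mark 2-fold, the solid line equal levels and the dash-dotted line the median of all genes tested (-0.01). Calcium channel beta subunits other than Cacnb3 lie to the left of the other families.

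The call counts depended on the scaling. Under library totals 3 members were higher (Scn7a, Cacna1e and Cacna1i) and 2 lower (Cacnb2 and Cacnb4), where 4.49% of all genes tested were called higher and 25.6% lower. In TPM 2 members were higher and 2 lower, where 4.02% of all genes tested were called higher and 27.7% lower. Under library totals 8 members with a ratio above 0 had one below 0, among them Hcn3, Scn3a, Cacna1s, Cacna1d, Scn3b and Cacna2d4. Just inside the 2-fold limit, Nalcn was 2.09-fold higher, while just outside it Cacna1c stood at 1.99-fold and Cacna2d2 at 1.91-fold.

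Sodium channel alpha mRNAs differed among themselves. Scn8a, the main alpha subunit of mature axon initial segments and nodes of Ranvier, had 9273 counts in synaptosomes and 6420 in homogenate, or 140 and 90.0 TPM, a level corrected for transcript length. It was 2.26-fold higher (95% counting interval 2.18 to 2.33). Scn1a, the alpha subunit on which fast-spiking inhibitory neurons depend most, had 3053 and 2820 counts, a ratio of 1.69-fold (1.61 to 1.78). Scn3a, prominent in the embryonic brain, had 654 counts in synaptosomes and 788 in homogenate, with a log2 ratio of 0.37 (0.22 to 0.52). The intervals of these 3 genes did not overlap, so their order exceeded counting error.

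Scn2a, the alpha subunit abundant early in development and in unmyelinated axons, is listed in the files as Scn2a1 and so falls outside the symbol rule. It had 6497 counts in synaptosomes and 4782 in homogenate and was 2.12-fold higher (2.04 to 2.20), with an interval that overlapped that of Scn8a. Added to the pore-forming class, it left the class median at 1.03. Among the alpha subunits with Scn2a1 included, Scn8a made up 46.9% of counts in synaptosomes and 42.7% in homogenate. Scn1a made up 15.4% in synaptosomes and 18.7% in homogenate.

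Alpha subunits known mainly from glia or from other tissues were scarce. Scn7a, a sodium-sensing channel made by glia and by cells of the circumventricular organs, had 124 counts in synaptosomes and 55 in homogenate. Its 3.52-fold ratio was the highest of all members tested, with a wide interval (2.54 to 4.93). Scn9a, a channel of peripheral sensory neurons, had 50 and 84 counts, and its interval of 0.641 to 1.33-fold spanned equal levels. On chromosome 2 the alpha genes lie side by side, and neighbours differed: Scn9a (chr2:66480081-66634952) stood at a log2 ratio of -0.11 and Scn7a (chr2:66673426-66784910) at 1.82.

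Calcium channel alpha1 mRNAs had the highest ratios among the abundant members. Cacna1e, the R-type pore, had 4401 counts in synaptosomes and 2232 in homogenate, or 58.6 and 27.7 TPM. It was 3.08-fold higher (2.93 to 3.24). Cacna1b, the N-type pore of nerve terminals, had 1774 and 1062 counts and was 2.61-fold higher (2.42 to 2.82). Cacna1a, the P/Q-type pore that drives release at most central synapses, had 3922 and 2526 counts and was 2.42-fold higher (2.31 to 2.55). The intervals of Cacna1a and Cacna1b overlapped, so these pores were not separated beyond counting error, whereas Cacna1e lay above both.

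The L-type pores stood lower than the presynaptic types. Cacna1c had 745 counts in synaptosomes and 586 in homogenate, at 1.99-fold (1.78 to 2.22). Cacna1d had 651 counts in synaptosomes and 1015 in homogenate, or 12.7 and 18.3 TPM, and its ratio of 1.00-fold (0.906 to 1.11) equalled the typical gene. Cacna1d accounted for 5.65% of the counts of high-voltage-activated alpha1 subunits in synaptosomes and 13.6% in homogenate, a share that needs no scaling between libraries. Cacna1e took 38.2% in synaptosomes and 29.9% in homogenate, while Cacna1a kept nearly the same share, at 34.1% and 33.8%. Cacna1s, the skeletal muscle pore, had 23 and 32 counts.

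The T-type pores, which open near rest and support burst firing, were spread out. Cacna1i had 2642 counts in synaptosomes and 1464 in homogenate and was 2.82-fold higher (2.64 to 3.01). Cacna1h, with 1248 and 1159 counts, stood at 1.68-fold (1.55 to 1.82), and Cacna1g, with 1661 and 1662 counts, at 1.56-fold (1.46 to 1.67). Cacna1i made up 47.6% of T-type counts in synaptosomes and 34.2% in homogenate, and Cacna1g 29.9% in synaptosomes and 38.8% in homogenate.

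**Figure D2:**
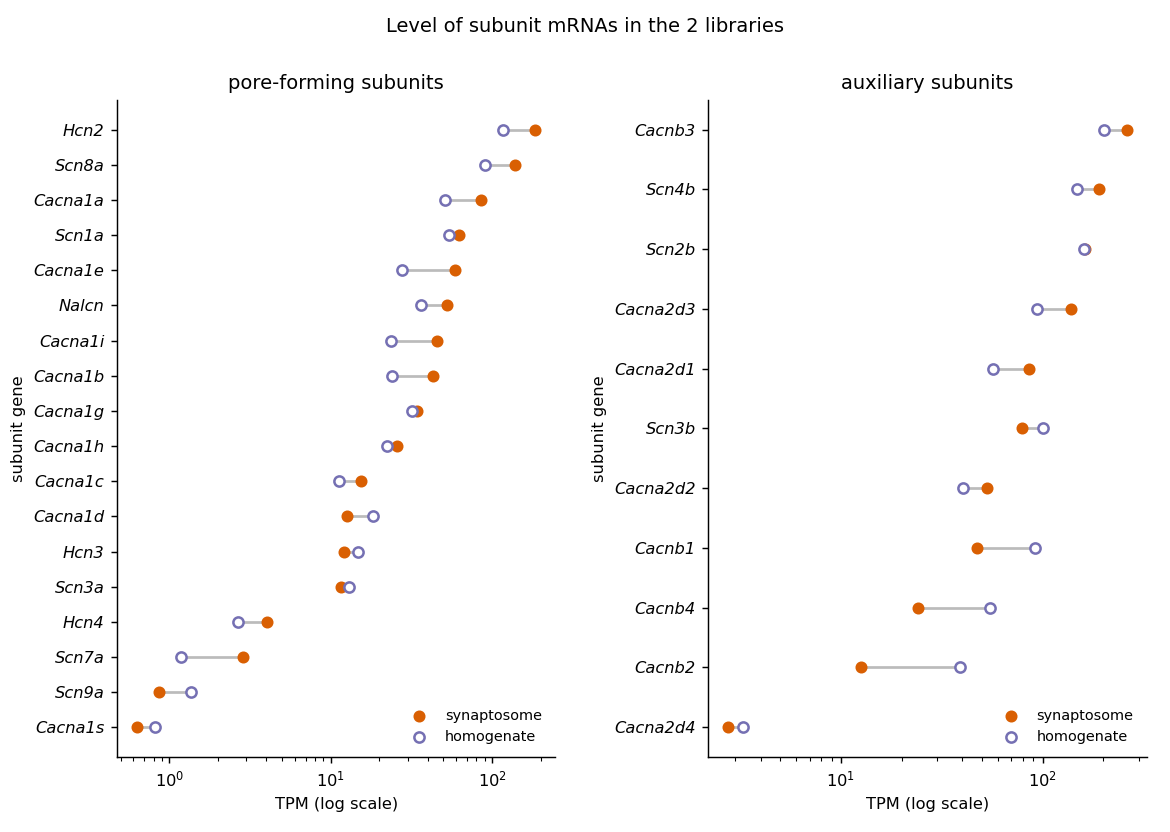
TPM (log axis) of 29 of the 32 tested subunit genes in synaptosomes (filled) and homogenate (open), pore-forming genes on the left and auxiliary genes on the right, ordered by the synaptosome level; each point is 1 library. For Scn2b the points coincide at 162 TPM in synaptosomes and 161 TPM in homogenate, and Cacnb1, Cacnb4 and Cacnb2 lie far to the left of their homogenate levels.

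The Cacna1a transcripts differed from each other in their ratios between the fractions. Of its 4 annotated transcripts, 3 keep a segment of 151 bases near the end of the coding region and 1 removes it. The segment is shown because its retention separates the libraries, with its first and last 2 bases in capitals. It lies at chr8:84639376-84639526 on the plus strand of GRCm38, within the coding part of 3 GENCODE M21 transcripts, and 82.8% of its bases are G or C.
Cacna1a segment: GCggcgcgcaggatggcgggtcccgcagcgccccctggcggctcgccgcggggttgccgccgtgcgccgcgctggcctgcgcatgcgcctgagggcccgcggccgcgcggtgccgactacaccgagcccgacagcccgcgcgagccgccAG
Transcripts that keep the segment had 464 counts in synaptosomes and 1133 in homogenate, or 11.8% (10.8% to 12.9%) and 44.9% (42.9% to 46.8%) of Cacna1a. The transcript without it had 3458 counts in synaptosomes and 1393 in homogenate, a ratio of 3.88-fold. The deposited posterior estimates, a second estimate of the same reads, gave 13.9% in synaptosomes and 50.7% in homogenate for the kept form. Nuclear noncoding RNAs were lower in the same synaptosome library for 4 of 4 genes, against 9.1% of all genes tested. Neither their part nor that of the segment's base composition was tested.

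Cacna1g forms also shifted. A 69-base exon (chr11:94439709-94439777, minus strand) and a 21-base extension of another exon (chr11:94425764-94425784) are both present in the most abundant transcript, and both are coding in 5 GENCODE M21 transcripts.
Cacna1g cassette exon: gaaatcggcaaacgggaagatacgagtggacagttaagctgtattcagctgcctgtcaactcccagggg
Cacna1g exon extension: gtaaggagaagcagatggccg
The form with the 69-base exon took 56.2% of Cacna1g counts in synaptosomes (53.7% to 58.6%) and 82.3% in homogenate (80.3% to 84.1%). Forms without it had 728 counts in synaptosomes and 295 in homogenate, at 3.85-fold, although the gene as a whole stood at 1.56-fold. The posterior estimates gave smaller gaps, at 54.8% and 74.9% for the 69-base exon and 65.7% and 82.9% for the extension.

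Cacna1d has alternative first exons. The transcript that starts at the inner one had 72 counts in synaptosomes and 240 in homogenate, or 11.1% (8.75% to 13.7%) and 23.6% (21.1% to 26.4%) of the gene. The posterior estimates gave 15.4% in synaptosomes and 23.8% in homogenate. Among the 10 annotated Cacna1c transcripts, the most abundant took 54.2% of counts in synaptosomes (50.6% to 57.9%) and 94.7% in homogenate (92.6% to 96.4%), or 42.9% and 64.9% by the posterior estimates. Another Cacna1c transcript had 283 of 745 counts in synaptosomes (34.5% to 41.6%) and 0 of 586 in homogenate, which allows a share of up to 0.512%. The posterior estimates for that transcript were 37.6% in synaptosomes and 5.78% in homogenate, so its size in homogenate depended on how reads were assigned.

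HCN mRNAs differed among themselves. Hcn2, the most abundant pore-forming member per length, had 185 TPM in synaptosomes and 118 TPM in homogenate, from 3420 and 2338 counts. It was 2.28-fold higher (2.17 to 2.41). Hcn4, known as the pacemaker channel of the heart and made in thalamus, had only 89 and 63 counts and was 2.21-fold higher (1.58 to 3.10). Hcn3 had 228 and 299 counts, and its interval of 0.998 to 1.42-fold included equal levels. Hcn2 took 78.4% of HCN counts in synaptosomes and 68.1% in homogenate, and Hcn3 took 5.23% in synaptosomes and 8.71% in homogenate.

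Nalcn (chr14:123276641-123627144), the leak channel, had 2191 counts in synaptosomes and 1639 in homogenate, or 52.4 and 36.5 TPM. It was 2.09-fold higher (1.96 to 2.23). Its known partners, which carry no pore of their own, lay near the typical gene. Unc79 stood at 1.05-fold (0.963 to 1.15), Unc80 at 0.982-fold (0.936 to 1.03) and Fam155a at 0.924-fold (0.843 to 1.01). The interval of each partner lay below that of Nalcn.

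Sodium channel beta mRNAs were the auxiliary family with the highest summed level, at 945 TPM in synaptosomes and 1024 TPM in homogenate. No beta gene reached 2-fold in either direction (0 of 4), although all 4 intervals lay above equal levels. Over all genes tested, 5200 of 14153 had an interval above equal levels. Scn4b, linked to resurgent sodium current, had 4680 counts in synaptosomes and 3945 in homogenate, at 1.85-fold (1.78 to 1.93). Scn2b, which like Scn4b joins the alpha subunit through a disulfide bond, had 4311 and 4609 counts, with a log2 ratio of 0.55 (0.49 to 0.61). These genes are neighbours on chromosome 9, Scn2b at chr9:45117876-45130070 and Scn4b at chr9:45139042-45154061.

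Scn3b had 1923 counts in synaptosomes and 2628 in homogenate, at 1.14-fold (1.08 to 1.21). Of its 3 transcripts, 1 keeps a 90-base segment in the last exon. That form took 19.7% of Scn3b counts in synaptosomes (17.9% to 21.5%) and 33.5% in homogenate (31.7% to 35.4%), so as in Cacna1a the form that keeps the segment made up less of the gene in synaptosomes.

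Alpha2delta mRNAs resembled the pores more than the other auxiliary families. Cacna2d1, a gabapentin-binding subunit, had 3737 counts in synaptosomes and 2680 in homogenate and was 2.18-fold higher (2.07 to 2.29). Cacna2d3 had 2964 and 2152 counts and was 2.15-fold higher (2.03 to 2.27), and the 2 intervals overlapped almost fully. Cacna2d2, the other gabapentin-binding subunit, had 1709 and 1397 counts, at 1.91-fold (1.78 to 2.05). Cacna2d4, best known from the retina, had 94 counts in synaptosomes and 119 in homogenate, and its interval of 0.931 to 1.63-fold spanned equal levels. The family median was 1.02 on the log2 scale, against 1.01 for pore-forming genes.

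Calcium channel beta mRNAs were split. Cacnb3 had 4031 counts in synaptosomes and 3335 in homogenate, or 261 and 201 TPM, at 1.89-fold (1.80 to 1.98). Cacnb1 had 520 counts in synaptosomes and 1073 in homogenate and lay 1.32-fold lower (1.19 to 1.47). Cacnb4, the beta subunit mutated in the epileptic and ataxic lethargic mouse, had 1131 counts in synaptosomes and 2758 in homogenate and lay 1.56-fold lower (1.46 to 1.68). Cacnb2 had 286 counts in synaptosomes and 940 in homogenate and was 2.10-fold lower (1.84 to 2.41). The intervals of Cacnb1, Cacnb4 and Cacnb2 all lay below equal levels. Such an interval was found for 3 of the 32 members tested and for 5085 of all 14153 genes tested.

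Cacnb3 made up 67.5% of beta subunit counts in synaptosomes (66.3% to 68.7%) and 41.1% in homogenate (40.1% to 42.2%). Cacnb4 made up 19.0% in synaptosomes and 34.0% in homogenate. Per length, the beta family totalled 345 TPM in synaptosomes and 387 TPM in homogenate.

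Cacnb4 and Cacnb2 transcripts differ at their first exons, which hold different start codons. The coding parts are shown because the shares of these starts differed between the libraries; capitals mark the start codon, and Cacnb4 lies on the minus strand of chromosome 2. The outer Cacnb4 transcript has a second exon of its own. The Cacnb2 inner-start transcript is a noncoding record in the deposited annotation, and its first exon is coding in 1 GENCODE transcript.
Cacnb4 inner first exon, chr2:52558269-52558313: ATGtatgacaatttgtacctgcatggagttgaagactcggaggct
Cacnb4 outer first exon, chr2:52676271-52676330: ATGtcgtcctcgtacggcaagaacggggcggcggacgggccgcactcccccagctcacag
Cacnb4 outer second exon, chr2:52675728-52675811: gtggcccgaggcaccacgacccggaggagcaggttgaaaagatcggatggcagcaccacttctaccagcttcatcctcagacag
Cacnb2 middle first exon, chr2:14824256-14824306: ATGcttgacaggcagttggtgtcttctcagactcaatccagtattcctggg
Cacnb2 inner first exon, chr2:14873877-14873945: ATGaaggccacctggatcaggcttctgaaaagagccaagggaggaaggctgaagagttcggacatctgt

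The starts of Cacnb4 differed in their ratios. The inner-start transcript had 443 counts in synaptosomes and 1855 in homogenate and was 2.68-fold lower. The outer-start transcript had 688 and 903 counts and stood at 1.19-fold, with a log2 ratio of 0.25 (0.11 to 0.40). Under library totals the outer-start log2 ratio was -0.24 (-0.39 to -0.098), so its direction depended on the scaling. The inner start thus gave 39.2% of Cacnb4 counts in synaptosomes (36.3% to 42.1%) and 67.3% in homogenate (65.5% to 69.0%), and the posterior estimates gave 39.5% and 65.9%.

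For Cacnb2 the middle-start transcript had 0 of 286 counts in synaptosomes, which allows a share of up to 1.05%, and 62.9% of the counts in homogenate. The posterior estimates placed it at 18.6% in synaptosomes and 54.6% in homogenate. Both estimates gave it a smaller share in synaptosomes, but its size there depended on how reads were assigned. The inner-start transcript took 80.4% in synaptosomes and 21.5% in homogenate, or 59.5% and 28.7% by the posterior estimates. In Cacnb3, the inner-start transcript had 566 of 4031 counts in synaptosomes and 322 of 3335 in homogenate, or 14.2% and 10.2% by the posterior estimates.

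**Figure D3:**
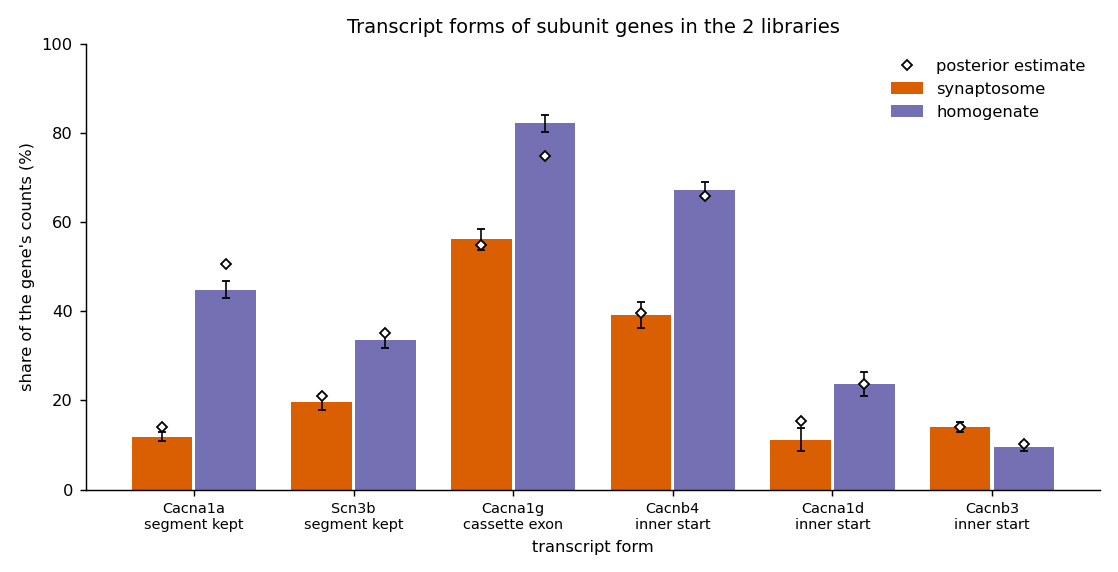
Share of each gene's counts (%) taken by 1 transcript form in synaptosomes (left bar) and homogenate (right bar), with exact 95% counting intervals and the deposited posterior estimate as a diamond. The kept segments of Cacna1a and Scn3b and the inner starts of Cacnb4 and Cacna1d took smaller shares in synaptosomes, and the Cacnb3 inner start took a larger one.

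Set against their pores, auxiliary mRNAs were scarcer in synaptosomes. In summed TPM there were 1.60 calcium channel beta transcripts per high-voltage-activated alpha1 transcript in synaptosomes and 2.90 in homogenate. Sodium channel beta transcripts per alpha transcript, with Scn2a1 included, came to 2.72 in synaptosomes and 4.13 in homogenate. Alpha2delta transcripts per high-voltage-activated alpha1 transcript came to 1.29 in synaptosomes and 1.45 in homogenate, the smallest gap of these ratios. All 12 auxiliary genes together summed to 1570 TPM in synaptosomes and 1605 TPM in homogenate. These quotients are taken within a library and need no scaling between the 2.

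**Figure D4:**
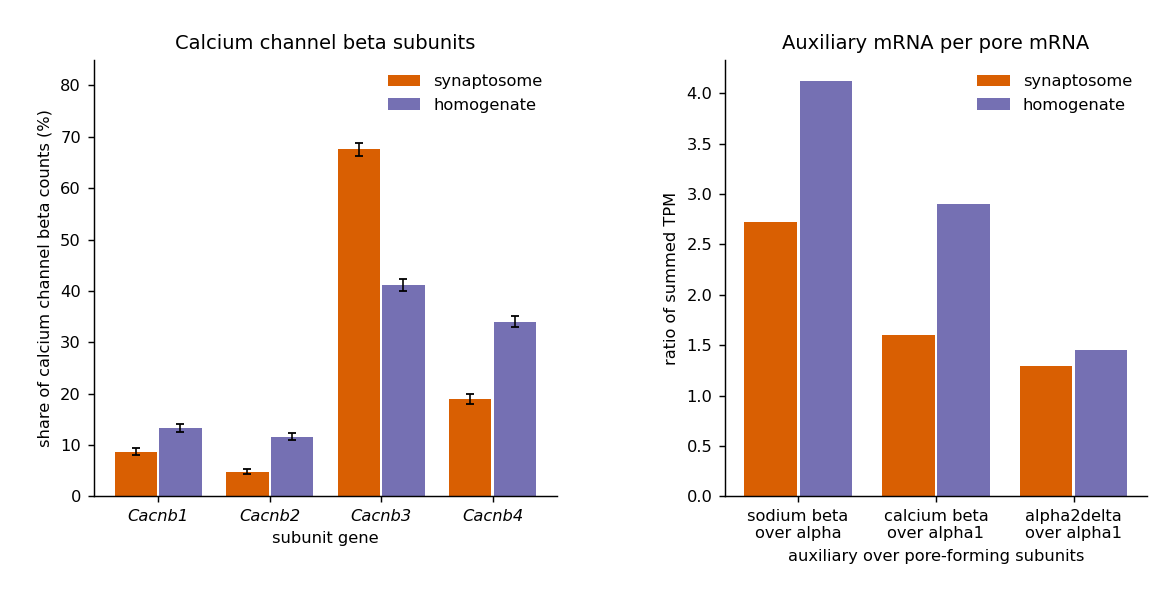
Left, share (%) of calcium channel beta counts held by each gene, with exact 95% counting intervals; right, summed TPM of auxiliary over pore-forming genes, with Scn2a1 among the sodium alpha genes, alpha1 limited to the high-voltage-activated genes, and no error bars, since each is a quotient from 1 library. Cacnb3 holds 67.5% of beta counts in synaptosomes and 41.1% in homogenate, and each quotient is lower in synaptosomes.

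Other genes of the channel complexes were taken from a list of 25 partners, Scn2a1 among them. Of the 23 that passed the filter, 6 were called higher and 2 called lower, against 12.8% and 9.1% of all genes tested. Their median log2 ratio was 0.21, against -0.01 for all genes tested. Under library totals these medians were -0.28 and -0.51. Fgf12, a cytosolic protein that binds the sodium channel tail, had 745 counts in synaptosomes and 2600 in homogenate and was 2.23-fold lower (2.06 to 2.43). Its relative Fgf14 lay 1.96-fold lower (1.64 to 2.34), below the 2-fold rule, while Fgf13 stood at 1.16-fold. Pex5l, which binds HCN tails and directs them to dendrites, stood at 1.14-fold (1.07 to 1.21), against 2.28-fold for Hcn2.

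Axon initial segment scaffolds were split. Ank3, the ankyrin that anchors sodium channels there, stood at 1.69-fold (1.62 to 1.76) and Nfasc, an adhesion protein it binds, at 1.53-fold (1.48 to 1.58). Their spectrin Sptbn4, listed as Spnb4, stood at 0.982-fold (0.925 to 1.04). Stac2, a cytosolic adaptor of L-type channels, was 2.43-fold higher (2.28 to 2.60), whereas its relative Stac was 3.12-fold lower from 8 counts in synaptosomes and 39 in homogenate. Among gamma subunits, Cacng4, Cacng5, Cacng7 and Cacng8 were 2.15-fold to 2.72-fold higher, while Cacng2 stood at 1.25-fold and Cacng3 at 1.01-fold. These gamma subunits are known mainly as AMPA receptor partners.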

How the data were processed

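For every one of 30383 transcripts the authors deposited an expected count, a posterior estimate of that count, a TPM and an FPKM value, and 1 signal value per gene in a table of both libraries. RSEM 1.2.5, TopHat 1.3.3, edgeR 3.0.6 and FastQC are named with mm10, per the submitters' processing notes, without their roles. FPKM as deposited by the authors was not used, and the deposited signal served only as an alternative. Expected counts are estimates, so reads shared by similar transcripts were divided by a model, and transcript shares carry an assignment error that no interval here covers. PCR copies are not independent molecules.

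Counts were added up per gene, rounded to whole numbers and scaled in R 4.3.3 by TMM from edgeR 4.0.16. The TMM factor was 0.8429 in synaptosomes and 1.186 in homogenate, on totals of 13709539 and 15210857 counts. DESeq2 1.42.0 size factors were an alternative. Genes needed a mean of 1 CPM. Intervals are exact 95% Clopper-Pearson intervals of the ratio given the summed count, and a count of 0 was given a floor of 3. The scripts (Python 3.11.15) were tested on simulated data. The rule gave full values to members above 10 CPM; values of scarcer members were added after they were seen, and other genes came from 1 list of partners. Transcript forms singled out were chosen after their values were seen. The members and lists were chosen with earlier results of these data known. Sequences are from GENCODE M21 transcripts on GRCm38, the assembly of mm10; all 36 genes matched in chromosome and strand, as did 2159 of 2165 internal exons of their deposited transcripts. Some items are not reported here, and their values enter only class counts, medians and sums.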

Additional observations from a re-analysis of the deposited data

How the results depend on the processing

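The share of all genes called was not computed for the deposited signal, posterior counts, DESeq2 size factors, no filter or the most abundant transcript. Member counts under them therefore have no background beside them. Under the deposited signal and the posterior counts (an alternative chosen after seeing the data) 12 members were higher and 1 lower. Per gene, posterior counts match the expected counts and the signal is nearly proportional to them, so the same calls follow. Under DESeq2 size factors 13 members were higher and 1 lower, with Cacna1c past 2-fold. Under these settings the pore-forming median was 1.01 to 1.04 and the auxiliary median 0.42 to 0.45, and with Scn2a1 added the pore-forming median was 1.03. Under library totals 3 members were higher and 2 lower, the pore-forming median was 0.52 and the auxiliary median -0.068. In TPM the values were 2, 2, 0.47 and -0.11. The gap between the classes was 0.59 under library totals, as a shift of all genes must leave it, and 0.58 in TPM. With no filter 2 members were lower, the pore-forming median was 0.87 and the gap 0.45. With a mean of at least 10 CPM the auxiliary median was 0.55 and the gap 0.44. At 1.5-fold 19 members were higher and 2 lower (24% and 20.9% of all genes tested), and at 3-fold 2 and 0 (3.62% and 2.79%). The mean over pore-forming genes was 0.87, and the auxiliary class from summed counts stood at 0.57. With the most abundant transcript of each gene 2 members were lower, the pore-forming median was 0.75 and the gap 0.27. The cause of the move was not tested, except that a scaling shifts all genes alike. No paired analysis was possible because each group has 1 library. Depth limits the scarce members: Scn7a, Scn9a, Hcn4 and Cacna1s had 23 to 124 counts in synaptosomes and 32 to 84 in homogenate.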

Other observations

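Cacna2d2 has 5 transcripts, and the most abundant took 53.8% of counts in synaptosomes and 39.0% in homogenate, or 42.1% and 34.5% by the posterior estimates. Cacna2d1 was assigned almost wholly to 1 form, with 98.9% of counts in synaptosomes and 2680 of 2680 in homogenate, or 95.9% and 90.7% by the posterior estimates. The more abundant of 2 Cacna1b transcripts took 82.4% in synaptosomes and 76.5% in homogenate.

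Across the 32 members tested, the log2 ratio had a Spearman correlation of 0.20 with the length of the longest transcript and 0.30 with the mean CPM. Over all 14153 genes tested these were 0.01 and 0.24. All points come from the same 2 libraries and these values are a description. Pore-forming genes had longer transcripts than auxiliary genes, with medians of 8226 and 4380 bases. Over all genes tested the median log2 ratio was -0.00 for longest transcripts of 7000 to 9000 bases and -0.01 for those of 3000 to 5000 bases.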
